A study of Homo sapiens with 16 samples.

Results

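H3K27ac, acetylation of lysine 27 on histone H3, was compared between HEK293 cells given sorbitol and cells given vehicle, over every interval of a shared peak count table. The comparison takes the intervals on chromosomes 1 to 22 and X outside the YAP1 gene, 73975 of the 74404 in the table. Of these, 56338 had enough H3K27ac counts to be tested and 17637 did not. HEK293 is a human embryonic kidney line that grows as an epithelial-like sheet. In the study, CUT&Tag was run on these cells for H3K27ac, CTCF, RAD21 and eGFP-tagged YAP, in 2 libraries for each target and condition, 16 in all. All cells carried eGFP-YAP and were serum starved before treatment. The sorbitol group received 200 mM sorbitol for 1 h, and the vehicle group was harvested in parallel without it. In CUT&Tag, an antibody bound in intact nuclei brings a transposase that cuts and tags the DNA near it, so a count is a number of tagged fragments in an interval.

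The labels do not say whether the 2 replicates of a group were separate cultures, so p-values measure the spread between these libraries, which may be technical. Nor do they say whether the cells were 1 clone. The eGFP-YAP cells were not compared with unmodified cells here. H3K27ac totals were 6561226 and 6541568 counts in the vehicle libraries, against 8842656 and 7807029 with sorbitol. Levels below are in CPM, counts scaled to a library total of 1e6, adjusted by TMM, a factor that sets the bulk of intervals equal between libraries. Intervals are called higher or lower at an adjusted p under 0.05 (edgeR quasi-likelihood test, two-sided, Benjamini-Hochberg over all 56338 intervals). No added reference chromatin is named in the labels, so a change of the whole mark cannot be told apart from a change of library composition. Of 9 promoters of kidney and epithelial genes used as markers of the line, 9 had an interval (KRT8 and KRT18 share 1) and 6 lay above the median coding-gene promoter of 43.4 CPM. Of 3 neural genes known to be active in this line, 3 had an interval and 0 lay above it. Of 18 promoters of blood, liver, muscle and endothelial genes, 6 had an interval and 0 lay above it. Of 4 fibroblast promoters, 4 had an interval and 0 lay above it.

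H3K27ac is placed by acetyltransferases such as EP300 and CREBBP, removed by histone deacetylases and read by bromodomain proteins such as BRD2. It marks active promoters, and at sites away from genes it marks active enhancers. Hyperosmotic sorbitol draws water out of cells, and they answer by taking up or making compatible solutes, with NFAT5 as the main transcription factor of that programme.

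The sequences below are examples from sites described in the result. The first is a stretch of 20 bases that recurs at distal intervals which lost the mark, and the next is 1 copy of a tandem array on chromosome X that lost it. The capitals in the array copy mark 20 bases found in 19 of its 24 tested intervals.
LINE-1 word: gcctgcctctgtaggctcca
DANT2 array copy, chrX:115844066-115844285, plus strand: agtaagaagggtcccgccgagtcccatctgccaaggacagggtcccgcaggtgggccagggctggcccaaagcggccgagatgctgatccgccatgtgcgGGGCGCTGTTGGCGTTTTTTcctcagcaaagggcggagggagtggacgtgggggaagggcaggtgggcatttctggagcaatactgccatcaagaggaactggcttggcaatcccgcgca

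Upstream bases of 5 promoters follow, from RefSeq (GRCh38.p14). Those of SUMF1, RBM19, UTP20 and ATG14 are among the 10 promoters that gained most, and LAMP1 encodes a main lysosomal membrane protein. Capitals mark the E-box CACGTG.
SUMF1 promoter, chr3:4467270-4467389, minus strand: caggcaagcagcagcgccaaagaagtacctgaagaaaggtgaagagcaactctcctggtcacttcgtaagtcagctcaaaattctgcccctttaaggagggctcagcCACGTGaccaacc
RBM19 promoter, chr12:113966326-113966445, minus strand: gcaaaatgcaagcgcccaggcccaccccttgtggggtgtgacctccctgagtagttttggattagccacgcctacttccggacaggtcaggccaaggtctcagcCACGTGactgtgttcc
UTP20 promoter, chr12:101279985-101280104, plus strand: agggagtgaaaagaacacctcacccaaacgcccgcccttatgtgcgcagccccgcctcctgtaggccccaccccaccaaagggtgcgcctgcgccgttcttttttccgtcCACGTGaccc
ATG14 promoter, chr14:55411831-55411950, minus strand: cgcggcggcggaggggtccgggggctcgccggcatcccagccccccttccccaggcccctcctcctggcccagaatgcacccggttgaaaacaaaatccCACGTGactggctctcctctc
LAMP1 promoter, chr13:113297029-113297238, plus strand: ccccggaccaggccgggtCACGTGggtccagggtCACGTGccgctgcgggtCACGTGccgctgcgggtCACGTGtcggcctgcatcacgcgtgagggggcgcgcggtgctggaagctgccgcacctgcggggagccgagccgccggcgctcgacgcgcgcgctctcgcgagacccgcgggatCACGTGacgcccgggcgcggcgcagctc

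The next pair are promoters of zinc finger genes that were among the 10 promoters that lost most. Capitals mark the ETS letters CCGGAAGT in ZNF274 and the letters CATTTCCC in ZNF850, on either strand.
ZNF274 promoter, chr19:58182861-58183011, plus strand: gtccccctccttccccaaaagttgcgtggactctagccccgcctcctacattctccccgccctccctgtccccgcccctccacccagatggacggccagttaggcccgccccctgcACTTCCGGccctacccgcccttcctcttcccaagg
ZNF850 promoter, chr19:36772842-36773007, minus strand: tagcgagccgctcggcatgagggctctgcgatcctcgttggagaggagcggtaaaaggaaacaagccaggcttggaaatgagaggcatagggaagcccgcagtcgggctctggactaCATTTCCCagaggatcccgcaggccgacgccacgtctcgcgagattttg

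Finally, the central 300 bases (hg38) are given of 3 distal intervals that gained the mark and 1 that lost it. Capitals in the SEMA3C window mark AP-1 (TGANTCA). Those in the ZNF608 window, an intron of a zinc finger gene on chromosome 5, mark the GATA motif searched in these windows (AGATAA). Capitals in the LINC02240 window, which comes from a noncoding gene that lies next to ZNF608, mark the motif bound by NFY (CCAAT). Those upstream of CBX8 mark SP/KLF (GGGGCGGGG) and YY1 (AAGATGGCG). Either strand was searched, so the reverse complement may be the one shown. The AP-1, GATA and NFY letters were about as common in all tested distal windows as in those that gained.
SEMA3C intron, chr7:80876938-80877237, plus strand: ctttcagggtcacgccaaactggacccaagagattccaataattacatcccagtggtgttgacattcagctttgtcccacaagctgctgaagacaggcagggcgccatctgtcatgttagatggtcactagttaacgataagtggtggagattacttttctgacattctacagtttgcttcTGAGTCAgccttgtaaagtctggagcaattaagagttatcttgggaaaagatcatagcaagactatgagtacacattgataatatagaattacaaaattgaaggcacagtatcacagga
ZNF608 intron, chr5:124656037-124656336, plus strand: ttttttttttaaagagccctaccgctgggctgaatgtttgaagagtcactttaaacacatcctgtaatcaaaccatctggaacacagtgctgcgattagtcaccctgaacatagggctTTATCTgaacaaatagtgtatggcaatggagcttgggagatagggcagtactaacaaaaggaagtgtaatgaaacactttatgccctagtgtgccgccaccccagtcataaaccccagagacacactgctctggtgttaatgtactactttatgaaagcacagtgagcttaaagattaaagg
LINC02240 intron, chr5:125198648-125198947, plus strand: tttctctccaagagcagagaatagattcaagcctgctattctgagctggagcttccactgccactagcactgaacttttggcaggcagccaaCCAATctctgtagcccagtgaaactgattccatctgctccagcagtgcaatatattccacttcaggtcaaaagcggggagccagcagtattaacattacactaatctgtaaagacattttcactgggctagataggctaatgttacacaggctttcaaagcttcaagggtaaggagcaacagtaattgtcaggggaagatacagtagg
Upstream of CBX8, chr17:79813514-79813813, plus strand: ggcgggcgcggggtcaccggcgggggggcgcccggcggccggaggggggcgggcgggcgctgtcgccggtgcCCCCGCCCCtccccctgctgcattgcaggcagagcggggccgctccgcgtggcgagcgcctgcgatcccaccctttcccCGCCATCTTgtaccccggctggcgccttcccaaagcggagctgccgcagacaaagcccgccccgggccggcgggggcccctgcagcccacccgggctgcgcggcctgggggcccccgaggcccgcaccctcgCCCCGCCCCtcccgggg

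After 1 h of sorbitol, under TMM scaling, the mark fell at many promoters and rose at a smaller number of promoters. At distal sites calls in both directions were fewer. Coding-gene promoters that rose had a median of 62.1 CPM and those that fell 50.6 CPM. Of the 56338 intervals, 4823 (8.56%) were higher and 8142 (14.5%) lower, 23.0% in all. That balance depends on the scaling. Scaling to total counts gave 8047 higher and 5861 lower, and scaling to the weakest 25% of intervals gave 1990 higher and 13992 lower. These scalings moved the median log2 fold change of all intervals from 0.02 to 0.17 and to -0.22, so list values below are to be read against the promoters of all coding genes. Offsets corrected for GC content gave 6016 higher and 6486 lower. Over coding-gene promoters these offsets turned the balance, from 13.0% higher and 32.4% lower to 23.3% higher and 20.7% lower. Their median log2 fold change went from -0.13 to 0.03. Without sorbitol replicate 1 the counts were 2615 higher and 5982 lower, and without sorbitol replicate 2 they were 2663 and 6598.

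Position and strength went together with the response. Among 23184 intervals within 1 kb of a start site, 2308 (9.96%) were higher and 6219 (26.8%) lower (36.8% either way), with a median log2 fold change of -0.13. Among 23192 distal intervals, more than 5 kb from any start site, 1771 (7.64%) were higher and 1248 (5.38%) lower (13.0% either way), with a median of 0.19. The promoter median minus the distal median was -0.32, and on the libraries of replicate 1 and of replicate 2 alone it was -0.29 and -0.29. The difference shrank when strength or GC content was taken into account: it was -0.14 with promoters and distal intervals matched on mean CPM, -0.09 with offsets following signal strength, -0.16 among intervals with a mean of at least 50 counts and -0.10 with GC-corrected offsets. The weakest 25% of intervals minus the strongest 25% gave 0.52 (0.46 and 0.44 on the libraries of replicates 1 and 2). It was 0.08 among intervals with a mean of at least 50 counts and 0.24 with GC-corrected offsets. The sorbitol libraries were the deeper ones, and the part of depth in these values was not tested. These differences are given without a test; an exact permutation test of 2 against 2 libraries cannot go below p = 0.33.

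**Figure D1:**
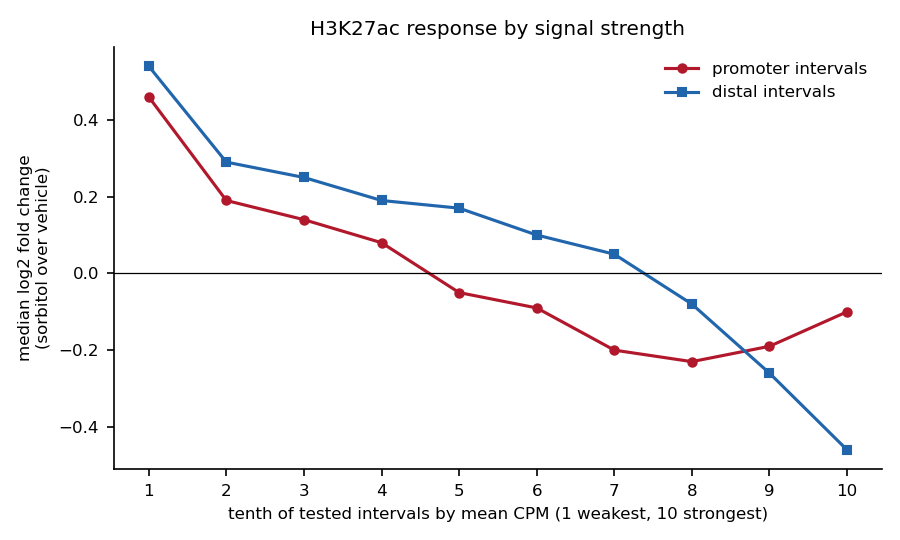
Median log2 fold change of H3K27ac (y axis, sorbitol over vehicle) in 10 equal classes of all tested intervals ranked by mean CPM (x axis), for promoter and distal intervals. Distal medians fall from 0.54 in the weakest class to -0.46 in the strongest, which holds 90 distal intervals, and promoter medians fall from 0.46 to -0.23 in class 8 and are -0.19 and -0.10 in classes 9 and 10.

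The promoters that lost most were mainly those of zinc finger genes, 9 of the 10 largest falls. Each coding gene is given by its strongest interval within 1 kb of an annotated start site (14347 genes, 12486 intervals). Of these promoter intervals, 13.0% were higher and 32.4% lower (45.4% either way), with a median log2 fold change of -0.13. ZNF470 encodes a zinc finger protein on the long arm of chromosome 19. Its promoter interval at chr19:56567038-56567956 had 10.9 and 13.3 CPM with vehicle and 1.33 and 1.02 CPM with sorbitol. Both sorbitol libraries lay far below both vehicle libraries, at a fitted log2 change of -3.33 ± 0.35 (SE; adjusted p = 1.4e-09 in edgeR). The ZNF582 interval, at chr19:56393043-56393904, had 9.95 and 8.91 CPM with vehicle and 1.11 and 0.768 CPM with sorbitol (log2 difference -3.29 ± 0.39, adjusted p = 2.7e-08). ZNF140 lies in a second zinc finger cluster at the end of chromosome 12. Its interval, chr12:133079946-133081167, went from 34.2 and 33.5 CPM to 4.78 and 4.09 CPM, 7.56-fold lower. ZNF274, which helps to silence other zinc finger genes by recruiting a histone methyltransferase, had 31.8 and 36.3 CPM and then 4.78 and 5.25 CPM. The interval shared by ZNF10 and ZNF891 on chromosome 12 had 30.2 and 36.7 CPM and then 4.22 and 5.89 CPM. ZNF850, ZNF606, ZNF441 and the interval shared by CHFR and ZNF605 complete the zinc finger genes among the 10 largest falls, with log2 fold changes of -2.56, -2.47, -2.34 and -2.37. Groups that do not overlap were a condition for entering this ranking of falls.

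Across the family, the loss was broad. Of 240 zinc finger genes on chromosome 19, 178 had a tested promoter, in 171 intervals. Of these, 142 (83.0%) were lower and 1 was higher, against 32.4% and 13.0% of all coding-gene promoters, with a median log2 fold change of -1.29. The 1 that rose was ZNF507, from a mean of 16.3 CPM to 26.2 CPM (log2 difference 0.69 ± 0.16, adjusted p = 0.0015), a call that was lost in the fit on all 16 libraries. The median was -1.20 on the libraries of replicate 1 and -1.27 on those of replicate 2. Zinc finger genes on other chromosomes had 20 higher and 115 lower of 205 intervals, with a median of -0.38. Among the latter, ZNF84 and ZNF268, neighbours of ZNF140, fell by 2.32 and 1.89 on the log2 scale, while the ZNF608 promoter had 11.8 and 13.5 CPM with vehicle and 20.5 and 23.8 CPM with sorbitol. Zinc finger genes arose by tandem duplication, and reads from near-identical copies may be split or shared between them. The chromosome 19 promoters were weaker than the average promoter, with a median of 11.5 CPM against 43.4 CPM. Among all promoter intervals between 11.3 and 24.4 CPM, 30.5% were lower and 5.65% higher, with a median of -0.23. With offsets that remove the trend on strength, 137 of 171 were still lower and 1 higher.

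The letters of these promoters differed from those of other promoters. Within the central 300 bases, on either strand, the ETS letters CCGGAAGT were in 14.0% of the 171 intervals against 4.10% of all coding-gene promoters. The YY1 letters AAGATGGCG were in 11.1% against 2.39%, and the CRE letters TGACGTCA in 4.68% against 1.20%. CATTTCCC, found by searching these promoters after the data were seen, was in 18.7% against 1.65%, and it was in 4 of the 10 promoters that lost most. The E-box was in 1.75% against 6.27%. These shares describe letters in a window and say nothing of what binds there.

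Chromosome 19 stood low also outside this family. Of its 702 coding-gene promoters that are not of zinc finger genes, 367 (52.3%) were lower and 18 (2.56%) higher, with a median of -0.47, against 30.4% and 13.8% on all other chromosomes. GC content moved with the response: in promoter intervals of 50 to 55% GC, 13.6% were lower, and in those of 70 to 75% GC, 43.0%. The median GC content was 65.8% in these chromosome 19 intervals and 64.6% on the other chromosomes. With GC-corrected offsets 38.9% of them were lower, against 18.7% elsewhere. Chromosome X had the next lowest share of rises, 5.16%.

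**Figure D2:**
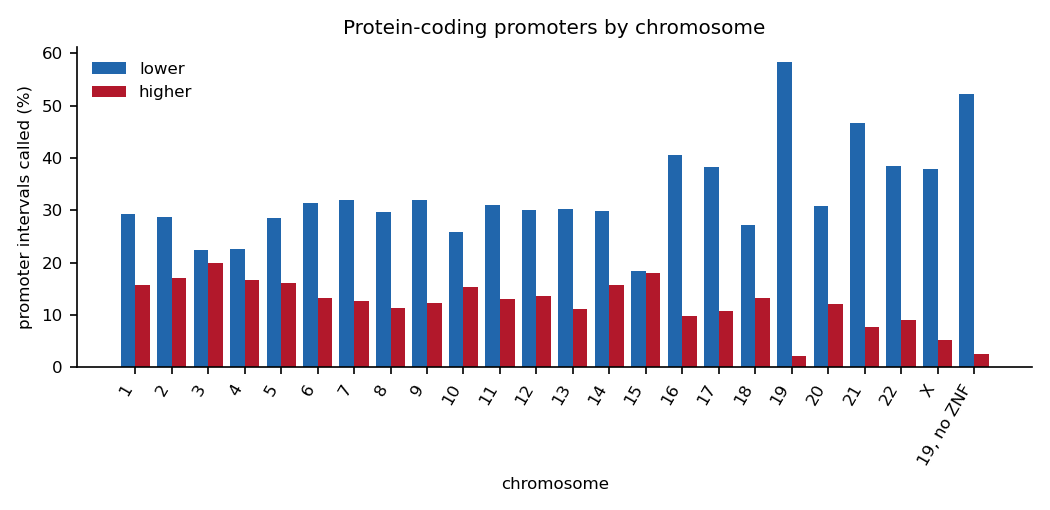
Share of coding-gene promoter intervals called lower (blue) and higher (red) on each chromosome, and on chromosome 19 without zinc finger (ZNF) genes. Chromosome 19 has 58.3% lower and 2.18% higher, and without ZNF genes 52.3% and 2.56%.

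Promoters of several chromatin genes and of HEXIM1 also lost the mark. HEXIM1 encodes the inhibitor that holds the elongation kinase P-TEFb inactive. Its promoter interval, chr17:45148169-45150050, fell from 87.6 and 89.5 CPM to 18.3 and 10.2 CPM (log2 difference -2.61 ± 0.14, adjusted p = 3.6e-14). BRD2, a bromodomain reader of acetylated histones whose interval also holds a start site of HLA-DMA, fell from 161 and 167 CPM to 50.8 and 53.1 CPM, 3.16-fold. BRD3, a related reader, fell by 1.16 on the log2 scale. The deacetylase HDAC1 fell from 44.3 and 52.0 CPM to 25.2 and 23.4 CPM. Of the 36 histone acetylation genes, 3 were higher and 20 lower (55.6% against 32.4% of all promoters), with a median of -0.35. With GC-corrected offsets 7 were higher and 12 lower, and of all coding-gene promoters 23.3% were then higher and 20.7% lower. The acetyltransferase CREBBP had a log2 fold change of -0.49 ± 0.11 and EP300 one of -0.24 ± 0.07 (adjusted p = 7.4e-04 and 0.013), and neither call held with GC-corrected offsets, where EP300 was at 0.01. The EP300 call was also lost without sorbitol replicate 1. Of 23 Polycomb and H3K27 methylation genes, 15 were lower and 3 higher, with CBX8, which encodes a Polycomb reader of methylated H3K27, falling by 1.69. With GC-corrected offsets 9 were lower and 4 higher, to be read against the same 20.7% and 23.3% of all coding-gene promoters.

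**Figure D3:**
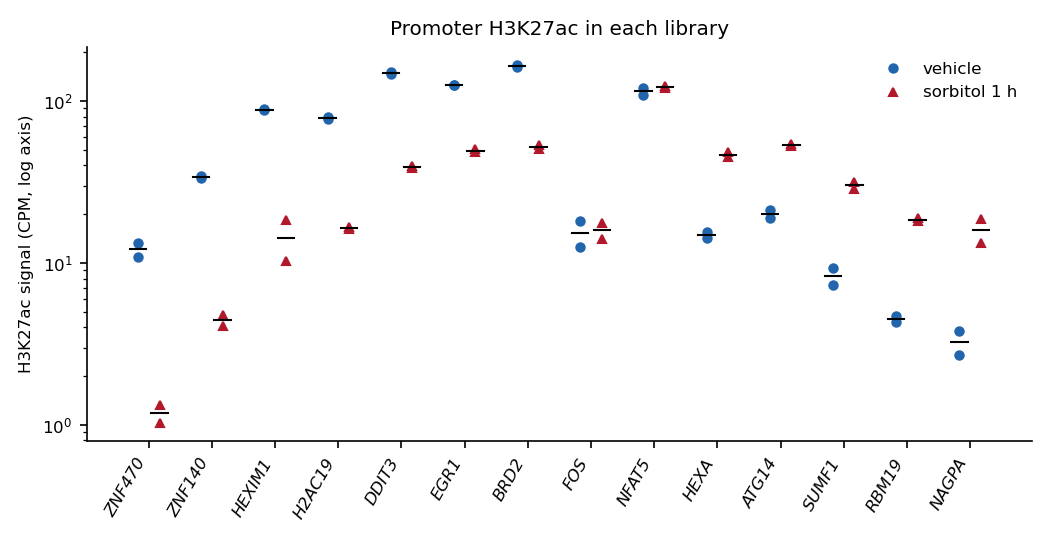
H3K27ac at 14 promoters in each library (CPM, log axis). Circles are vehicle and triangles sorbitol libraries, and bars are group means of 2. HEXIM1 goes from 87.6 and 89.5 to 18.3 and 10.2 CPM, the FOS groups overlap, and SUMF1 goes from 7.30 and 9.25 to 31.8 and 28.8 CPM.

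Many histone genes lost the mark. Replication-dependent histone genes lie in clusters on chromosomes 1 and 6 and are transcribed in S phase. Of their 37 tested intervals 22 (59.5%) were lower and 0 higher at the threshold, against 32.4% and 13.0% of all promoters, with a median of -0.82. The median was -0.73 on the libraries of replicate 1 and -1.06 on those of replicate 2. The H2AC19 interval, chr1:149851192-149852148, fell from 79.9 and 77.5 CPM to 16.1 and 16.6 CPM (log2 difference -2.27 ± 0.11, adjusted p = 5.4e-18). The interval shared by H2AC17, H2BC17 and H3C12 fell from a mean of 45.6 CPM to a mean of 10.3 CPM, with no overlap. H1-2, a linker histone gene, had 22.9 and 19.5 CPM with vehicle and 22.5 and 22.8 CPM with sorbitol. Histone genes are similar copies, some of them near-identical, and their counts are uncertain where reads match more than 1 copy. How many of the intervals this affects was not tested.

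Promoters of inducible stress genes mostly had less of the mark. The integrated stress response raises ATF4 and its targets when translation initiation is inhibited. Of its 25 genes 18 (72.0%) were lower and 1 higher, against 32.4% and 13.0% of all coding-gene promoters, with a median of -0.67. DDIT3, which encodes the pro-apoptotic factor CHOP, shares an interval with MBD6, and it fell from 147 and 152 CPM to 39.7 and 38.5 CPM (log2 difference -1.94 ± 0.08, adjusted p = 4.9e-20). CHAC1, a glutathione-degrading enzyme and target of the pathway, fell from 92.4 and 90.6 CPM to 27.8 and 27.6 CPM. ATF4 itself fell by 0.90 on the log2 scale, TRIB3 by 0.96 and ASNS by 0.75. Under GC-corrected offsets and under offsets on strength 18 of the 25 were lower.

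Immediate early genes, which encode transcription factors induced within minutes of a stimulus, had 18 of 25 intervals (72.0%) lower and 0 higher, with a median of -0.67. Of all coding-gene promoters 32.4% were lower and 13.0% higher. EGR1 fell from 125 and 125 CPM to 48.1 and 50.4 CPM, JUND by 1.87 on the log2 scale and ATF3 by 0.99. JUN went from 73.6 and 78.9 CPM to 54.5 and 51.2 CPM (log2 difference -0.53 ± 0.09, adjusted p = 2.9e-05). The FOS groups overlapped, with 18.2 and 12.6 CPM against 14.0 and 17.7 CPM (log2 fold change 0.03 ± 0.20). Of 30 early feedback genes 18 were lower and 1 higher, GADD45B leading with means of 28.6 CPM against 7.01 CPM, followed by ZFP36, which encodes an mRNA decay factor, at -1.47. DUSP1, a MAP kinase phosphatase, fell by 0.91.

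Osmotic response genes did not gain the mark as a list at this time. NFAT5 had 109 and 120 CPM with vehicle and 120 and 124 CPM with sorbitol, and the groups overlapped. Of 16 tested genes of NFAT5 and organic osmolytes, 1 was higher and 8 lower, with a median of -0.58. SLC6A8, the creatine transporter gene, fell from 113 and 122 CPM to 43.8 and 51.2 CPM in an interval shared with PNCK. The interval of SLC5A3, the myo-inositol transporter gene, which is shared with MRPS6, fell by 0.96, AKR1B1, which makes sorbitol from glucose, by 0.65, and SLC38A2, an amino acid transporter gene, by 0.72. SLC6A6, the taurine transporter gene, had 85.6 and 85.1 CPM with vehicle and 91.5 and 98.5 CPM with sorbitol (adjusted p = 0.17). The kinase gene SGK1 had a log2 fold change of -0.59 ± 0.13, a call lost with GC-corrected offsets. MAPK14, which encodes the stress kinase p38 alpha, rose by 0.31 in log2 units, a call lost under scaling to the weakest intervals, where it was 0.06. Of 31 genes for ion transport in cell volume control 4 were higher and 9 lower (median -0.11). These shares, 12.9% and 29.0%, were near the 13.0% and 32.4% of all coding-gene promoters.

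Heat shock and chaperone genes had 3 higher and 12 lower of 40 (30.0% lower, near the 32.4% of all promoters), with DNAJB1 (an interval shared with TECR) and HSPA1B falling by 1.16 and 0.98. HSPA4 rose by 0.42, a call lost in the fit on all 16 libraries. For p53 targets 2 of 24 were higher and 11 (45.8%) lower. BBC3, which encodes the apoptosis inducer PUMA, fell from 70.8 and 66.8 CPM to 17.2 and 19.4 CPM. SRF and actin cytoskeleton genes had 5 higher and 15 lower of 30, and ACTB and ACTG1, which encode the cytoplasmic actins, fell from 121 and 134 CPM to 42.9 and 41.5 CPM and from 96.2 and 102 CPM to 37.2 and 35.1 CPM. YAP target genes had 4 of 22 (18.2%) higher and 6 (27.3%) lower, with a median of -0.10. CCN1, a classical YAP target, had 70.5 and 74.3 CPM with vehicle and 70.5 and 63.1 CPM with sorbitol, and ANKRD1 was too weak to read at 1.49 to 4.04 CPM. CCN2 had means of 36.0 CPM with vehicle and 45.1 CPM with sorbitol (log2 fold change 0.33 ± 0.11, adjusted p = 0.034), a call lost in DESeq2 and without vehicle replicate 2, sorbitol replicate 1 or sorbitol replicate 2. TEAD and Hippo pathway genes had 6 higher and 7 (33.3%) lower of 21, and MYC family and cell cycle genes 2 and 12 (52.2%) of 23. HOX genes had 0 and 14 (43.8%) of 32, cohesin and CTCF genes 2 and 7 (38.9%) of 18, and kidney developmental factors 5 and 7 (28.0%) of 25. The lower shares of the YAP target, TEAD and Hippo, cohesin and kidney lists were near the 32.4% of all coding-gene promoters, of which 13.0% were higher. With GC-corrected offsets the balance turned to more higher than lower for the YAP target (7 and 4), TEAD and Hippo (8 and 4), kidney (9 and 3) and ion transport (7 and 4) lists. It turned over all coding-gene promoters too, to 23.3% higher and 20.7% lower. The CTCF gene itself fell from 175 and 160 CPM to 99.0 and 113 CPM, and PAX2, a renal lineage factor, was at a log2 difference of 0.19 ± 0.11 (adjusted p = 0.23). Only 2 of 53 clustered protocadherin genes had a tested promoter, and 1 was lower.

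**Figure D4:**
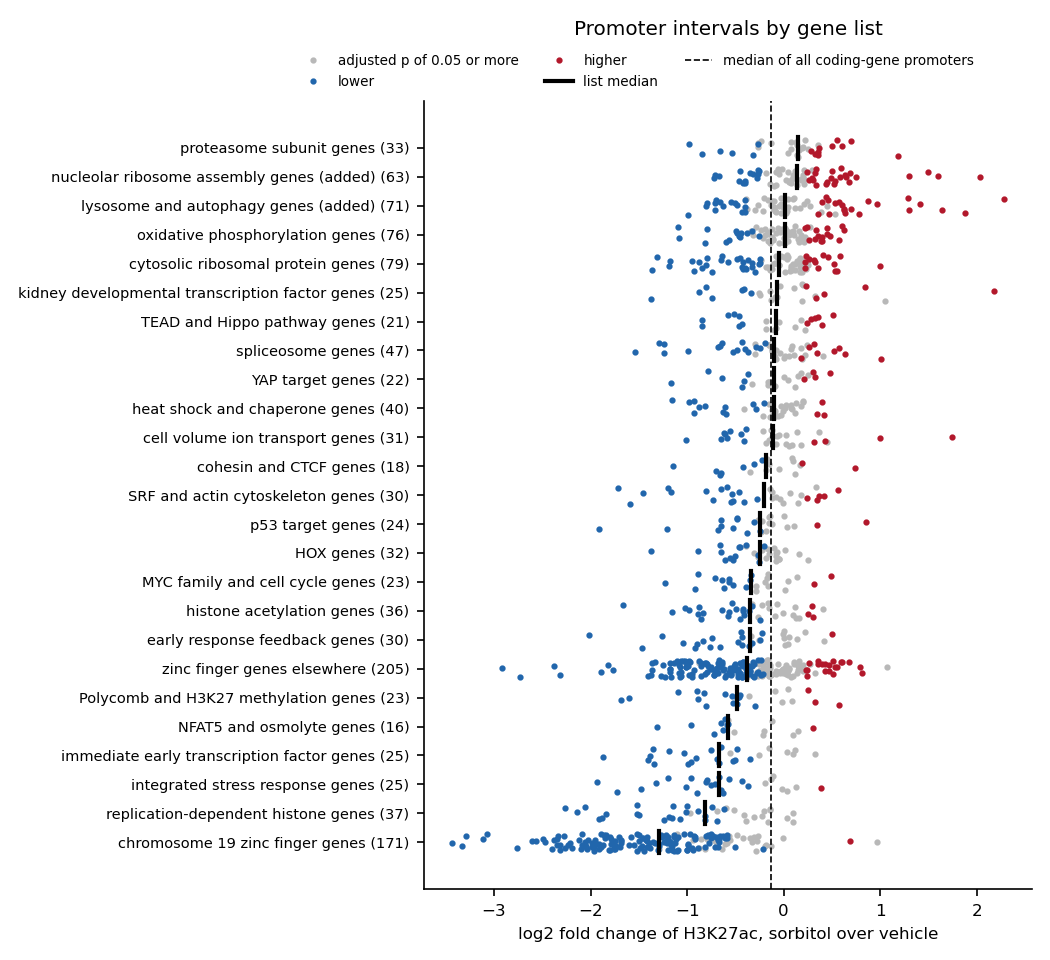
Log2 fold change (x axis) of each tested promoter interval in 25 gene lists with more than 2 intervals, with the number of intervals in brackets. Blue points are lower, red higher and grey not called; bars are list medians, which run from -1.29 (chromosome 19 zinc finger genes) to 0.14 (proteasome), and the dashed line is the median of all coding-gene promoters, -0.13.

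Housekeeping lists divided. Of 33 proteasome subunit promoters, 10 were higher (30.3% against 13.0%) and 6 lower, with a median of 0.14. PSMB7, which encodes a catalytic subunit, had 5.81 and 7.06 CPM with vehicle and 15.0 and 14.3 CPM with sorbitol, and PSMA7 fell from 123 and 125 CPM to 60.8 and 65.4 CPM in an interval shared with SS18L1. Oxidative phosphorylation genes had 15 higher and 14 lower of 76, ribosomal protein genes 14 and 28 of 79, and spliceosome genes 8 and 16 of 47. Their lower shares were 18.4%, 35.4% and 34.0%, against 32.4% of all coding-gene promoters. Under offsets following signal strength the balance turned, to 31 higher and 21 lower ribosomal protein genes and 16 higher and 12 lower spliceosome genes. These lists are strong, with medians of 86.0 and 73.0 CPM against 43.4 CPM for all coding-gene promoters. The same offsets gave 28 higher and 12 lower oxidative phosphorylation genes and 19 higher and 3 lower proteasome genes. Shares of all coding-gene promoters under these offsets are not given, so the turn is not read as particular to these lists. Within single complexes, members moved in opposite directions. RPL41 fell by 1.31 and RPL38 rose by 0.99, while the splicing factor genes U2AF2 and SRSF7 (an interval shared with GEMIN6) fell by 1.54 and 1.29 and PRPF18 rose by 1.01. Under scaling to the weakest intervals the medians of the proteasome and oxidative phosphorylation lists were -0.10 and -0.23. That scaling moved the median of all intervals too, from 0.02 to -0.22. In the main fit these lists lay 0.28 and 0.15 above the median of all coding-gene promoters.

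Among the 10 promoters that gained most were those of several lysosomal, autophagy and ribosome assembly genes. NAGPA, the uncovering enzyme that completes the mannose 6-phosphate tag of lysosomal enzymes, had 3.81 and 2.69 CPM with vehicle and 13.3 and 18.7 CPM with sorbitol at chr16:5033507-5034145 (log2 fold change 2.29 ± 0.28, adjusted p = 3.5e-08). SUMF1, which activates lysosomal and other sulfatases, went from 7.30 and 9.25 CPM to 31.8 and 28.8 CPM at chr3:4466826-4467534 (1.87 ± 0.18, adjusted p = 3.0e-10). HEXA, the alpha subunit of lysosomal hexosaminidase, went from 14.3 and 15.6 CPM to 44.8 and 48.2 CPM, ATG14, a subunit of the autophagy lipid kinase complex, from 18.9 and 21.2 CPM to 52.9 and 54.1 CPM, and ZFYVE26, which acts in autophagic lysosome reformation, from 13.1 and 16.1 CPM to 36.9 and 35.1 CPM. RBM19 and UTP20, both needed for processing of ribosomal RNA in the nucleolus, went from 4.31 and 4.71 CPM to 18.2 and 18.8 CPM and from 12.8 and 12.6 CPM to 35.3 and 36.2 CPM. FCF1, another ribosomal RNA processing factor, shares an interval with AREL1 that rose by 1.60 in log2 units. ETV5, an ETS family transcription factor, and SMG8, a regulator of nonsense-mediated decay, rose by 2.17 and 1.49. Groups that do not overlap were a condition for entering this ranking of rises.

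Of these 10 intervals, 7 hold the E-box CACGTG within their central 300 bases, as do 783 of 12486 coding-gene promoters (6.27%). The 7 are NAGPA, SUMF1, RBM19, HEXA, UTP20, ATG14 and ZFYVE26. In the upstream sequences printed above, the last base of the E-box lies 8 bases before the RefSeq start site in SUMF1, 11 in RBM19, 5 in UTP20 and 16 in ATG14. Among the 100 largest promoter rises, with log2 fold changes from 0.86 to 2.29, 24 hold it, and among the 100 largest falls 8 do. The longer GTCACGTG was in 19 of these rises, 1 of these falls and 1.79% of all coding-gene promoters. Over all 783 promoters with the E-box the median log2 fold change was -0.11, against -0.13 without it, and 15.3% were higher and 30.7% lower. Over all 223 promoters with GTCACGTG the median log2 fold change was 0.04, against -0.14 without it. The ETS letters were in 8.26% of all promoters called higher and in 3.51% of those called lower. These letters were looked for after the largest rises had been seen.

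Lists of lysosome and nucleolar genes were then written from textbook knowledge, with the largest rises already known, so their counts are not independent of them. Of 71 lysosome and autophagy genes 21 (29.6%, against 13.0% of all coding-gene promoters) were higher and 15 (21.1%, against 32.4%) lower, with a median of 0.02. LAMP1, whose printed promoter holds 5 E-boxes, had 3.32 and 2.02 CPM with vehicle and 6.56 and 6.53 CPM with sorbitol (log2 fold change 1.29 ± 0.36, adjusted p = 0.0069). CTSA, a lysosomal protease, went from a mean of 17.4 CPM to 34.1 CPM, and the proton pump subunit ATP6V0D1 from 33.7 and 39.5 CPM to 59.1 and 59.5 CPM. NEU1, lysosomal sialidase, fell from 20.6 and 22.5 CPM to 12.9 and 11.6 CPM. Of 63 nucleolar ribosome assembly genes 24 (38.1%, against the same 13.0%) were higher and 14 (22.2%, against 32.4%) lower, with a median of 0.14. RRP15 rose from a mean of 21.1 CPM to 51.7 CPM and NAT10, an RNA acetyltransferase, from 49.8 and 50.3 CPM to 86.8 and 81.6 CPM, while RRP9 fell from 62.0 and 64.6 CPM to 37.0 and 39.9 CPM. The medians of both lists fell below 0 under scaling to the weakest intervals, where they were -0.22 and -0.10. That scaling moved the median of all intervals too, from 0.02 to -0.22. In the main fit the lists lay 0.15 and 0.27 above the median of all coding-gene promoters.

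At distal sites, many losses lay on repeats. A run of 20 bases picked from lower distal intervals, printed first above, was in 406 of the 1248 (32.5%) and in 1 of the 1771 higher ones. Downstream of it lie open reading frames of 338 amino acids at 414 intervals and 1275 amino acids at 159. Frames of these lengths are those of LINE-1, the human retrotransposon that carries an internal promoter at its 5′ end. The order of the frames was not recorded. Of 1444 tested distal intervals with the word, 406 (28.1%) were lower and 1 higher, with a median of -0.69, and 94.9% had a log2 fold change below 0. Distal intervals without it numbered 21748, with 842 (3.87%) lower and 1770 (8.14%) higher and a median of 0.24. As the word was picked from lower intervals, this is a description. The median with the word was -0.77 on the libraries of replicate 1 and -0.48 on those of replicate 2. In each of 5 classes of distal intervals by strength, the median with the word lay between -0.84 and -0.64, and without it between 0.07 and 0.54. At 151 promoter intervals with the word 68 (45.0%) were lower and 0 higher. Of the 23033 promoter intervals without it, 26.7% were lower and 10.0% higher. Promoter intervals with the word had a median GC content of 58.0%, and the distal ones 58.5% against 51.6% without it.

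The word occurs 2899 times on chromosomes 1 to 22 and X of hg38, and reads from near-identical copies cannot always be assigned to 1 copy, so intervals are not independent of each other. How the authors treated such reads is not given in the sources used here. The FOX letters TGTTTAC were in 35.6% of lower distal intervals, 4.63% of higher and 11.1% of all. Without the intervals that hold the LINE-1 word these shares were 9.38%, 4.58% and 5.89%.

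**Figure D5:**
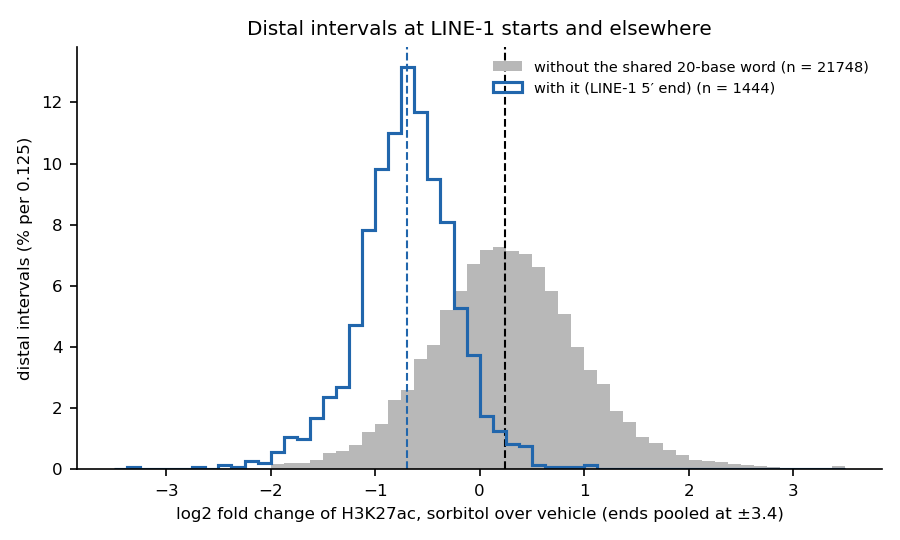
Distribution of the log2 fold change of H3K27ac (x axis) at distal intervals with the LINE-1 word (blue line, n = 1444) and without it (grey, n = 21748), in percent of each set per bin. Dashed lines are the medians, -0.69 and 0.24.

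Of the repeat arrays examined, the tandem part of DANT2 lost the mark at every tested interval. In the DANT2 noncoding gene on chromosome X, named for its association with the macrosatellite DXZ4, 24 intervals spaced by a median of 2974 bases lie between 115727398 and 115889015. All 24 were lower, with log2 fold changes from -2.65 to -1.42. Their summed signal was 4820 and 4721 CPM with vehicle and 1291 and 1548 CPM with sorbitol. Because the copies are alike, these 24 are best taken as 1 observation. FIRRE, another X-linked noncoding gene with repeats, had 5 of 14 intervals lower and 0 higher, with summed signals of 141 and 126 CPM and then 101 and 112 CPM. On chromosome 19, 20 intervals of a repeat array between 47904064 and 47963488 had 14 lower and 0 higher, and their sum went from 185 and 182 CPM to 97.9 and 108 CPM. The tRNA gene cluster at chr1:161427777-161470671 had 14 of 16 intervals lower and 0 higher, and its sum went from 770 and 768 CPM to 313 and 334 CPM. Over the genome, 162 intervals held the B box, the internal promoter element of tRNA genes. Of these, 75 were lower and 10 higher, with a median of -0.34, against 14.5% lower and 8.56% higher of all tested intervals. The B box intervals were strong, with a median of 26.4 CPM. Between 24.4 and 53.9 CPM, 39.0% of all tested intervals were lower and 11.4% higher, with a median of -0.20. Runs of at least 4 TTAGGG, the telomere repeat, went the other way: of 32 intervals 18 were higher and 0 lower, with a median of 0.82, and 30 of the 32 lay within 200 kb of a chromosome end. These loci were chosen after their values had been seen.

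Among the largest distal losses outside repeats, some lay near genes whose promoters fell. Upstream of CBX8 on chromosome 17, 3 intervals from 79811338 to 79813849 fell, with vehicle means of 8.09, 14.6 and 11.2 CPM and sorbitol means of 1.88, 3.17 and 1.98 CPM. For the last of them the log2 difference was -2.50 ± 0.32 (adjusted p = 1.2e-07). An interval 5399 bases from the start of CCNE1, the cyclin E gene, went from 7.46 and 8.91 CPM to 2.78 and 1.41 CPM, and the CCNE1 promoter from a mean of 44.3 CPM to 18.8 CPM. Others lay near GPRC5C and within LINC01503, with log2 fold changes of -2.10 and -2.07. In DESeq2 the GPRC5C call was lost.

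Distal gains were more often intronic than distal losses. Of the 1771 higher distal intervals 69.0% were intronic and 25.5% intergenic, against 42.5% and 53.4% of the 1248 lower and 60.3% and 33.8% of the uncalled. Their median signal was 3.10 CPM, against 2.76 CPM in the uncalled and 6.99 CPM in the lower. In SEMA3C, which encodes a secreted guidance factor, the interval chr7:80876869-80877305 went from 1.99 and 2.86 CPM to 8.89 and 9.60 CPM (log2 fold change 1.92 ± 0.33, adjusted p = 2.0e-05). The ZNF608 intron interval chr5:124655979-124656393 went from 2.65 and 2.19 CPM to 8.34 and 9.21 CPM, and the LINC02240 intron interval chr5:125198593-125199001 from 3.32 and 3.36 CPM to 10.7 and 12.8 CPM. Intervals within CHST11, NPAS3 and RNF125 rose by 1.76, 1.72 and 1.72 in log2 units. A pair of intervals on chromosome 21 rose by 1.88 and 1.73, and they lie 5492 and 5473 bases from the ribosomal RNA genes RNA5-8SN1 and RNA5-8SN2. These genes are repeat copies, so the pair may share reads. CTCF (3.65 and 3.77), RAD21 (2.90 and 2.66) and YAP1 (2.50 and 2.63) rose there too.

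Several genes held more than 1 gained site, where 7.64% of all distal intervals were higher. Genes were drawn from those with at least 4 distal intervals called in 1 direction, so high shares follow in part from that choice. LINC02240, next to ZNF608, had 11 of 23 distal intervals higher, SLIT3 8 of 24, KCNIP1 7 of 17 and PDE4D 7 of 29. DACH1 had 7 of 28, SEMA3C 5 of 15 and ZNF608 5 of 8, with 0 lower in all of these. Others had lower shares or some losses: PCDH9 had 9 of 74 higher and 1 lower, NKAIN2 6 of 16 and 1, AUTS2 6 of 44 and 0, and GSE1 4 of 50 and 2. The promoters of SEMA3C, ZNF608 and PDE4D rose by 0.88, 0.81 and 0.89. Those of GSE1, DACH1 and PCDH9 were lower, with log2 fold changes of -1.24, -0.19 and -0.19. The SLIT3, KCNIP1, NKAIN2 and AUTS2 promoters were not called. The AP-1 letters were in 12.2% of higher distal windows, TEAD (CATTCC) in 17.1% and the GATA letters in 11.6%, near the 11.4%, 15.5% and 11.3% of all tested distal windows. NFY letters were in 24.9% of the higher and 24.6% of all. In lower distal windows the SP/KLF letters were in 5.05% and the YY1 letters in 0.240%, against 2.12% and 0.177% of all. With offsets on strength, 1144 distal intervals were higher and 1453 lower.

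The other targets of the same cells were then read at these intervals, each scaled within its own libraries. At the 4042 promoters with less H3K27ac, CTCF (a boundary protein) had a median log2 fold change of 0.72 over 3765 tested, and 45.9% were higher for CTCF, against 16.8% at the 1622 promoters with more H3K27ac and 24.3% at the uncalled promoters. Over all coding-gene promoters 3344 of 10869 were higher for CTCF, with a median of 0.51. For RAD21, a cohesin subunit, the medians were 0.34 and 0.03, and for YAP1, the Hippo pathway coactivator, -0.09 and -0.21. The difference in response was tested directly (edgeR interaction over 8 libraries). H3K27ac responded differently from CTCF at 13487 of 67119 intervals (20.1%), from RAD21 at 4160 of 61735 (6.74%) and from YAP1 at 4259 of 58173 (7.32%). It lay above CTCF at 9.97% and below it at 10.1% of the intervals compared, above and below RAD21 at 2.16% and 4.58%, and above and below YAP1 at 5.56% and 1.76%. The targets' own signal rose at 19.5% and fell at 21.2% of the intervals tested for CTCF. For RAD21, 2.78% of tested intervals rose and 1.19% fell. YAP1 signal rose at 4.57% and fell at 1.51%. These counts depend on how each target is scaled. With total counts they were 21204, 7344 and 18298.

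At some promoters the marks moved in opposite directions. At GADD45B, which encodes a growth arrest and DNA damage factor, H3K27ac changed by -2.02 while CTCF changed by 5.15 and YAP1 by 4.72 (log2), and H3K27ac minus YAP1 was -6.23 (adjusted p = 6.4e-60). At HEXIM1 the values were -2.61, 2.42 and 2.44, and H3K27ac minus YAP1 was -4.54 (adjusted p = 1.0e-33). EGR1 had -1.34, 1.90 and 2.29. Of the 25 immediate early gene intervals, H3K27ac lay below CTCF at 18 and above it at 0, against 3496 and 882 of the 12428 coding-gene promoters compared. Zinc finger promoters of chromosome 19 had a median CTCF change of 0.41 over the 97 tested, below the 0.51 of all coding-gene promoters, and H3K27ac lay below CTCF at 64 of 171, against 3496 of all 12428 compared. In the DANT2 array, best taken as 1 observation, H3K27ac lay below CTCF, RAD21 and YAP1 at 24, 24 and 23 of 24 intervals. The medians of these targets there were -0.16, 0.72 and 0.68. YAP1 itself was higher at 13 of 24, and CTCF and RAD21 at 0. At distal LINE-1 intervals the medians of CTCF, RAD21 and YAP1 were -0.06, -0.40 and -0.38 over 525, 252 and 367 tested. CTCF calls there came to 5 higher and 16 lower, those of RAD21 to 0 either way, and YAP1 gave 1 lower.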

How the data were processed

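CUT&Tag was done on nuclei of HEK293 eGFP-YAP cells, per the labels' protocols. The deposited table holds raw counts per interval for 16 libraries, with no normalization. The submitters' processing notes name BWA 0.7.17, MACS2 2.2.6, bedtools 2.31.1, Trim Galore, SAMtools, Picard and hg38. Filters on multiply mapped or duplicate reads are not given in the sources used here.

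Coordinates count from 1. Intervals were annotated with GENCODE release 44. Those on chromosome Y (64), contigs (344), the mitochondrial genome (9) and inside YAP1 (12) were left out. Counts were tested in edgeR 4.0.16 (filterByExpr minimum 10, TMM, robust quasi-likelihood, Benjamini-Hochberg 0.05), with SE taken as the log2 fold change over the square root of F; DESeq2 1.42.0 was an alternative. Values on the libraries of 1 replicate number use log2(CPM + 0.5). On simulated data for this comparison (56338 intervals), 79.3% of the 2-fold changes at a mean of at least 50 counts and 36% of all 200 were recovered, with 8 false calls.

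Named intervals had to have adjusted p under 0.05, a mean above 4.65 CPM (the median) and groups that do not overlap: the 10 largest rises and falls at coding-gene promoters and 8 each at distal sites, then up to 2 each way per list, and 23 genes given whatever their values. Some items that this rule names are not reported here. LAMP1, CTSA, ATP6V0D1, NEU1, RRP15, RRP9, NAT10 and other list members were named after their values were seen. The comparison and the 24 gene lists were chosen with earlier results of these data known, and 2 more lists after seeing these results. Motifs were searched as letters on both strands. Of 14347 coding genes with a tested promoter, 11352 matched the RefSeq promoter table.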

Additional observations from a re-analysis of the deposited data

Results flagged for a closer look

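The response of H3K27ac to sorbitol was compared with that of each other target in 1 model, and it differed at 13487 intervals for CTCF, at 4160 for RAD21 and at 4259 for YAP1. H3K27ac lay above CTCF at 6690 and below it at 6797, above RAD21 at 1335 and below it at 2825, and above YAP1 at 3234 and below it at 1025. Scaling to total counts moved these splits to 18691 and 2513, 6433 and 911, and 18015 and 283. The targets differ in depth, so these counts are not to be ranked against each other.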

How the results depend on the processing

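The main comparison called 12965 intervals. DESeq2 called 6700 (1479 higher, 5221 lower), the fit on all 16 libraries 3719 (730 and 2989), and leaving out each library in turn 8597 to 10602 (2615 to 3731 higher, 5982 to 6871 lower). Total-count scaling gave 8047 higher, and scaling to the weakest 25% gave 1990 higher and 13992 lower. Calls over the gene lists went from 648 to 331 in the fit on all 16 libraries. Higher distal intervals (1771) numbered 202 in DESeq2, 2912 with total counts, 877 with the weakest 25%, 1144 with strength offsets, 810 at a mean of at least 50 counts, 246 in the fit on all 16 libraries and 691 to 1383 with a library left out. Lower distal intervals (1248) numbered 446 in DESeq2, 2480 with the weakest 25%, 512 at a mean of at least 50, 280 in the fit on all 16 and 638 to 977 with a library left out. Without sorbitol replicate 1 there were 691 higher and 638 lower, and without sorbitol replicate 2 there were 742 higher.

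Promoter minus distal (-0.32) was -0.09 with strength offsets, -0.32 with no filter, -0.16 at a mean of at least 50, -0.10 with GC offsets, -0.31 beyond 10 kb, -0.14 when matched on CPM and -0.36 to -0.31 with a library left out. Weak minus strong (0.52) was 0.45 with no filter, 0.08 at a mean of at least 50, 0.24 with GC offsets and 0.47 to 0.62 with a library left out. The FOX share at lower minus all distal intervals (24.5 percentage points) was 14.9 at a mean of at least 50, 28.0 beyond 10 kb and 3.5 without the LINE-1 word. Differences from CTCF numbered 7897 at a mean of at least 50 and 21204 with total counts. From RAD21 they numbered 2336, 7344 and, with a library left out, 1861 to 4502. From YAP1 they numbered 2657, 18298, 6641 with GC offsets and 2183 to 3975 with a library left out. The causes were not tested.

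Signs turned at NIPBL (-0.06), NFAT5 (-0.15), PAX2 (-0.05) and FOS (-0.21) under scaling to the weakest 25%. With a library left out FOS ranged from -0.22 (without vehicle replicate 2) to 0.32, with -0.14 without sorbitol replicate 2, and ANKRD1 from -0.88 to 0.54 (without vehicle replicate 2). CCN1 was 0.03 with total counts, 0.04 with strength offsets, 0.02 at a mean of at least 50, 0.03 with GC offsets and 0.03 with the block added to these. EP300 was 0.01 with GC offsets and 0.01 with the block added.

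Replicate numbers did not pair the samples: deviations of same-numbered libraries correlated at -0.006. With replicate number as a block 13163 intervals were called, and with the block and GC offsets 12606. The median signal of distal sites was 2.87 CPM, and the part of depth in their calls was not tested. Of 124 called intervals given by the naming rule, not all of them reported above, 86 kept call and direction in every alternative that gave a value. The fit on all 16 libraries lost 37 of the 124.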
